A study of Mus musculus with 9 samples.

Results

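The genes described here encode the proteins of the cytosolic ribosome. They were taken by their gene names, i.e., Rps or Rpl followed by a number and at most a short suffix letter, together with Rplp0, Rplp1, Rplp2 and Rpsa, and no measured value entered the choice. The rule found 83 genes, 32 of the small subunit and 51 of the large subunit, among 41710 gene names, and their 498 annotated transcripts were summed by gene. Expression was measured by RNA sequencing of hearts from male FVB/N mice at an age of 8 months, with 3 libraries in each of 3 groups. Tg-RKIP mice carry a transgene for RKIP (Raf kinase inhibitor protein, gene Pebp1) under control of the alpha-MHC promoter, which is active in cardiomyocytes. The second transgenic group is labelled Tg-GRK2, for a GRK2 transgene whose promoter the sources used here do not give, and the FVB controls are non-transgenic. Whole hearts were pulverised, so that every library holds the RNA of all cardiac cell types, and fewer cells of a type cannot be told apart from less RNA per cell.

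The ribosome translates mRNA into protein. Its small subunit reads the mRNA, and its large subunit joins the amino acids and passes the growing chain through an exit tunnel. Ribosomal proteins are made in similar amounts and assembled with ribosomal RNA in the nucleolus, and their mRNAs mostly begin with a pyrimidine tract, the 5′ TOP motif, through which mTORC1 and LARP1 control their translation. A few subunits have a second gene, a paralog, with restricted expression. The best known of these in muscle is Rpl3l, the paralog of Rpl3 that is used in heart and skeletal muscle.

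The libraries held between 25458108 and 33447654 reads assigned to transcripts. Pebp1 was at 15967 to 16371 TPM (a level corrected for transcript length and library depth) in Tg-RKIP and at 321 to 330 TPM in FVB. Grk2 was at 26.4, 24.9 and 30.5 TPM in the Tg-GRK2-labelled hearts and at 27.9, 25.9 and 27.4 TPM in FVB, and it did not pass the test (log2 fold change 0.054 ± 0.038 SE, adjusted p = 0.354). A higher Grk2 level was thus not detected in these libraries, and they are named by their label only. The 8 cardiomyocyte markers summed to between 45857 and 48755 TPM over all 9 libraries, with none of them at 0. The share of mitochondrially encoded transcripts was lower in Tg-RKIP (11.7% ± 0.156 of all reads, SD, n = 3) than in FVB (23.1% ± 0.158), and the Tg-GRK2-labelled hearts were at 22.6% ± 0.299.

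The sequences around the annotated start sites of a few members are shown, because the 5′ TOP tract is the feature these mRNAs are known to share and the rule did not use it. Promoter sequences from RefSeq (GRCm38.p6) matched 63 of the 83 members. Each window runs from 30 bases before the annotated start to 20 bases after it on the strand of the gene, and capitals mark the longest run of C and T that begins with C within 20 bases of the start on either side.
Rpl3l: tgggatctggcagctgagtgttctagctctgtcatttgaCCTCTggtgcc
Rpl22l1: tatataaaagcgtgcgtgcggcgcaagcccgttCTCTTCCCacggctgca
Rps12: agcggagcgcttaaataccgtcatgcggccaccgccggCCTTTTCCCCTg
Rpl41: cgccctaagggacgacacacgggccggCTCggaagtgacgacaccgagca
Rpl13a: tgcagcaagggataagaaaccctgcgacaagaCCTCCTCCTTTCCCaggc
Rpl15: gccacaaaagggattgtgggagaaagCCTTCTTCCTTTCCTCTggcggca

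These windows lie at chr17:24727796-24727845 (plus strand, Rpl3l), chr3:28805478-28805527 (plus, Rpl22l1), chr10:23787190-23787239 (minus, Rps12), chr10:128549149-128549198 (minus, Rpl41), chr7:45128726-45128775 (minus, Rpl13a) and chr14:18270967-18271016 (minus, Rpl15). The run was 5 letters long in Rpl3l, 3 in Rpl41, 8 in Rpl22l1, 11 in Rps12, 14 in Rpl13a and 17 in Rpl15. A C at the annotated start followed by 4 letters that are each C or T, read on the strand of the gene, was found in 12 of the 63 members (19.0%) and in 2.49% of the 27025 genes of the promoter table. A run of at least 8 letters within the searched window was found in 28 of the 63 members (44.4%) and in 12.4% of all genes. The annotated start is not a measured start in these hearts, and a match is a description of the letters only.

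In FVB hearts most members were abundant, but their levels differed widely. Their median was 392 TPM, and 73 of the 83 genes were at 100 TPM or more, from 152 TPM upwards. Of the other 10 genes, Rpl29 was at 1.77 TPM, Rpl10 at 8.26 TPM and Rps2 at 14.7 TPM. The share of short sequence windows unique to the gene was 33.9% for Rpl29, 9.9% for Rpl10 and 21.0% for Rps2. The median over the members was 34.9%. The treatment of reads shared with other genes is not given, and its part in these low values was not tested. At the upper end, the 5 most abundant genes together held 12.2% of the summed TPM of the members. Among these were Rps24 (789 ± 23 TPM, SD, n = 3), Rps14 (728 ± 16), Rpl13a (722 ± 19) and Rplp0 (689 ± 6), the last being the base of the ribosomal P stalk. The median coefficient of variation between the 3 hearts was 2.70% over the 81 members that passed the filter on low counts. The members that did not pass were the paralogs Rpl10l, which had 0 reads in every library and thus an upper limit of 3 reads, and Rpl39l, with 1 to 5 reads per library.

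The share of the library taken by ribosomal protein mRNA was highest in Tg-RKIP and lowest in the Tg-GRK2-labelled hearts. The members held 1.99%, 2.01% and 2.02% of all reads in Tg-RKIP, 1.16%, 1.17% and 1.19% in the Tg-GRK2-labelled hearts, and 1.28%, 1.34% and 1.33% in FVB. No library of any group overlapped with another group. Of the reads that were not mitochondrial, the members held 2.27% ± 0.02 (SD, n = 3) in Tg-RKIP, 1.51% ± 0.02 in the Tg-GRK2-labelled hearts and 1.72% ± 0.04 in FVB, in the same order. The summed TPM was 47893 ± 255 in Tg-RKIP, 27534 ± 215 in the Tg-GRK2-labelled hearts and 30252 ± 616 in FVB.

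**Figure D1:**
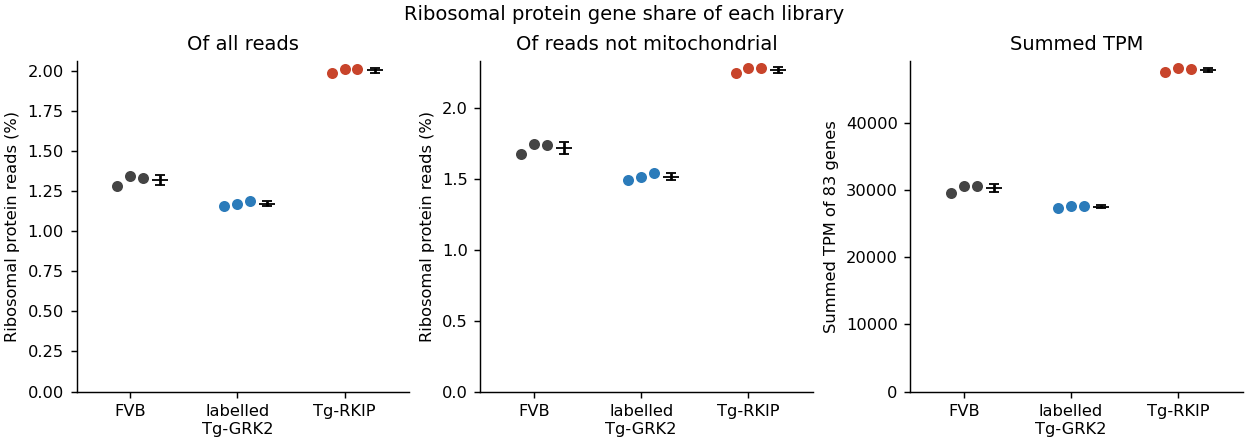
Ribosomal protein mRNA in each of the 9 libraries, as percent of all reads (left), percent of the reads that are not mitochondrial (middle) and summed TPM of the 83 genes (right). Points are libraries, and the black mark with bars is the mean ± SD of 3; the Tg-RKIP libraries lie above and the Tg-GRK2-labelled hearts below the FVB libraries in every panel.

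The small subunit took a slightly larger part of the member reads in Tg-RKIP. The summed reads of the small subunit divided by those of the large subunit were 0.740, 0.747 and 0.746 in Tg-RKIP, against 0.708, 0.713 and 0.714 in FVB and 0.706, 0.704 and 0.705 in the Tg-GRK2-labelled hearts. The Tg-RKIP libraries lay above all others. In TPM, which corrects for transcript length, the ratio was 0.794 to 0.805 in Tg-RKIP, 0.775 to 0.785 in FVB and 0.769 to 0.774 in the Tg-GRK2-labelled hearts.

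Most ribosomal protein genes were higher in Tg-RKIP than in FVB hearts, by a small amount each. After TMM scaling, 68 of the 81 tested members rose and 3 fell at an adjusted p below 0.05, and 10 did not pass. Of all 15504 tested genes, 36.8% rose and 37.1% fell in this comparison, so that 84.0% of the members rose against a background of 36.8%. The median log2 fold change of the members was 0.25, with the middle of the distribution between 0.12 and 0.32, and that of all tested genes was 0.009. In TMM-scaled counts the groups did not overlap for 66 higher and 2 lower members, against 38.0% and 37.7% of all tested genes. With a test for a fold of at least 1.2, 26 members were higher and 1 was lower, against 24.8% and 24.6% of all tested genes. Small subunit genes rose in 30 of 32 cases (median 0.29), and large subunit genes in 38 of 49 (median 0.22). Each value is relative to the other genes of the library. On the library size alone, where the median of all genes was 0.38, the median of the members was 0.63 and 77 rose, against 62.6% of all genes. On log2(TPM + 0.1), where the median of all genes was 0.43, that of the members was 0.67 and 78 rose, against 66.3% of all genes.

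**Figure D2:**
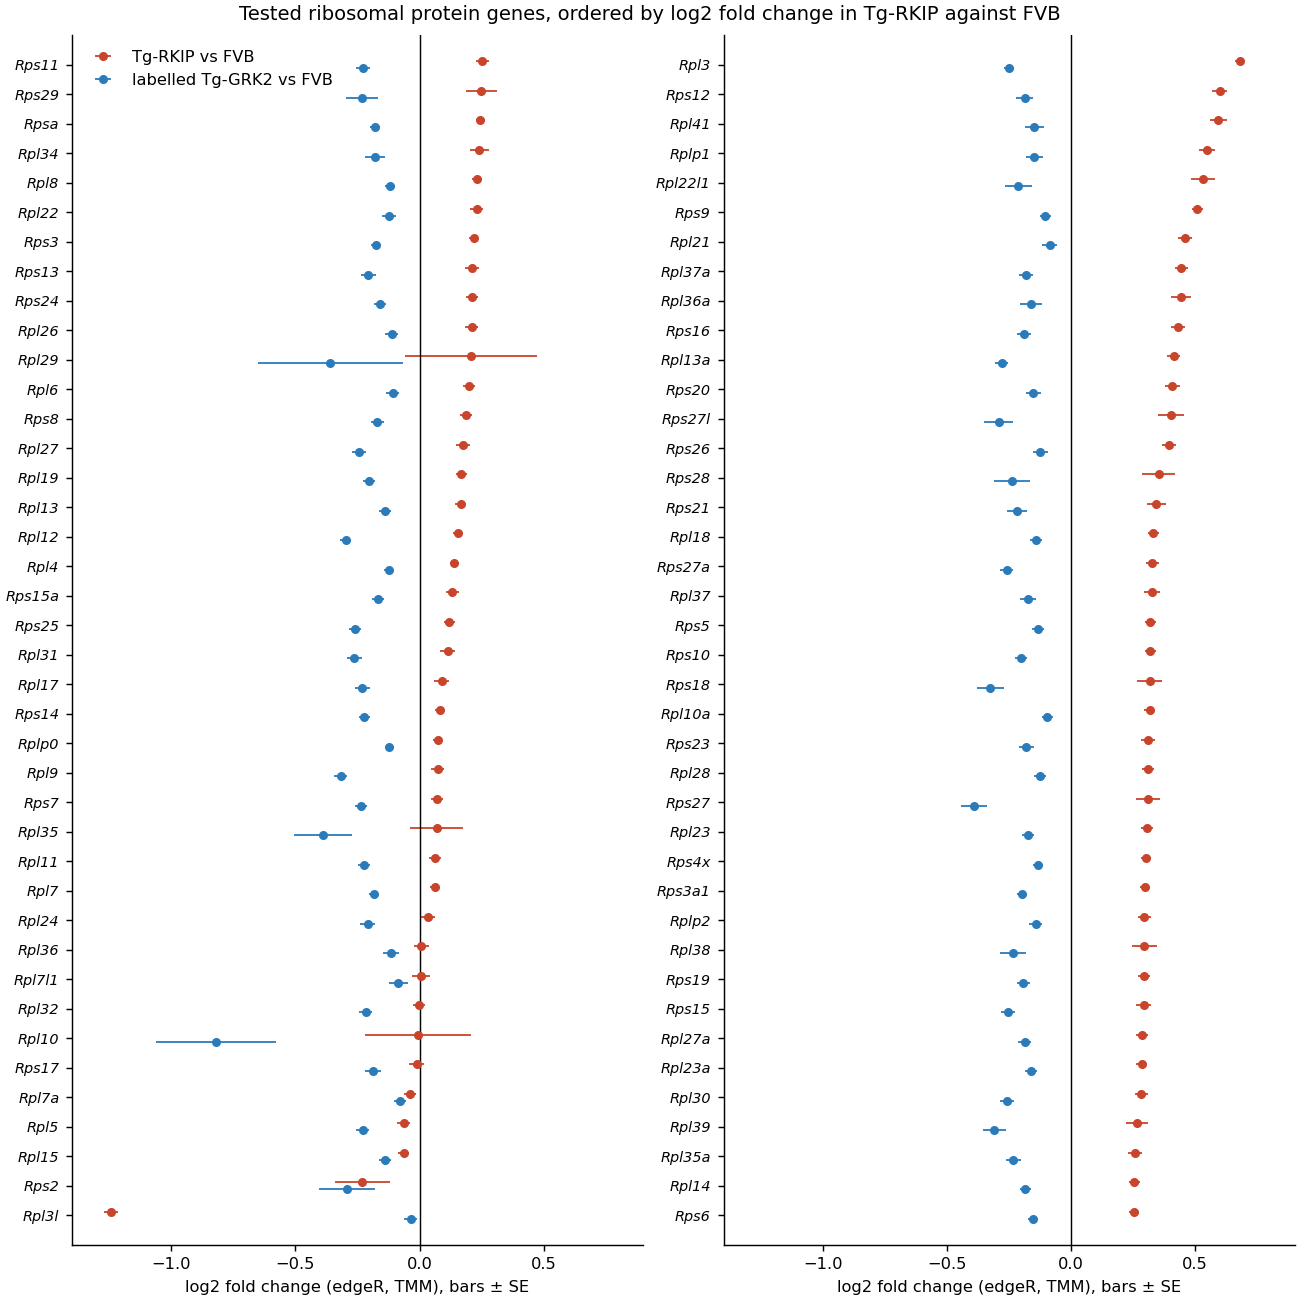
Log2 fold change (edgeR with TMM scaling, x axis, bars ± SE) of 80 of the 81 tested ribosomal protein genes, ordered by its value in Tg-RKIP against FVB. Red points, Tg-RKIP against FVB; blue points, the Tg-GRK2-labelled hearts against the same FVB libraries. Rpl3l stands apart at -1.24 in Tg-RKIP, the highest member is Rpl3 at 0.68, and every blue point shown lies below 0.

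Marker genes of several cell types, not all of them cell types of the heart, also differed between Tg-RKIP and FVB. Their part in this shift was not tested. The counts below stand beside 36.8% of all tested genes that rose and 37.1% that fell. The summed TPM of 8 fibroblast markers was 2719 to 2733 in Tg-RKIP and 1032 to 1060 in FVB, and all 8 rose. Of 8 macrophage markers 7 rose and 1 fell (448 to 454 against 171 to 177 TPM), all 7 lymphocyte markers rose (14.6 to 16.6 against 4.71 to 4.96 TPM), and all 8 adipocyte markers rose (237 to 242 against 41.5 to 43.3 TPM). Of 8 endothelial markers 5 rose and 3 fell (482 to 486 against 333 to 335 TPM), all 5 erythrocyte markers rose (3477 to 3645 against 739 to 753 TPM), and of 6 skeletal muscle markers both of the tested ones rose (at most 32.0 against at most 12.8 TPM). Airway epithelium markers summed to 91.8 to 96.9 TPM in Tg-RKIP and to 0.11 to 0.64 TPM in FVB, where Scgb1a1, Scgb3a2, Sftpc and Bpifa1 had 0 reads in every library. Of the 8 cardiomyocyte markers 7 fell after TMM scaling (median -0.97), while their summed TPM was 45857 to 46714 against 48449 to 48755.

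The members with the largest rise in Tg-RKIP were Rpl3, Rps12, Rpl41, Rplp1 and Rpl22l1. Rpl3 encodes a large subunit protein that reaches towards the peptidyl transferase centre, and it was at 471, 457 and 474 TPM in Tg-RKIP and at 211, 211 and 211 TPM in FVB (log2 fold change 0.68 ± 0.02 SE, adjusted p = 3.78e-18). Rps12, a small subunit protein, was at 532, 553 and 523 TPM against 253, 277 and 261 TPM (0.60 ± 0.03, adjusted p = 9.47e-14). The groups did not overlap for either gene. Rpl41, a very short peptide of the large subunit, was at 1056, 1092 and 1020 TPM against 485, 545 and 540 TPM (0.59 ± 0.04, adjusted p = 2.14e-12). Rplp1, an acidic protein of the P stalk that contacts elongation factors, was at 1161, 1163 and 1127 TPM against 538, 619 and 609 TPM (0.55 ± 0.03, adjusted p = 3.35e-12). Among the members, Rpl41 moved from rank 15 in FVB to rank 5 by TPM, and Rplp1 from rank 10 to rank 4. Rpl13a, at 1320, 1232 and 1297 TPM against 707, 744 and 716 TPM, became the most abundant member (0.41 ± 0.03, adjusted p = 5.63e-12).

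**Figure D3:**
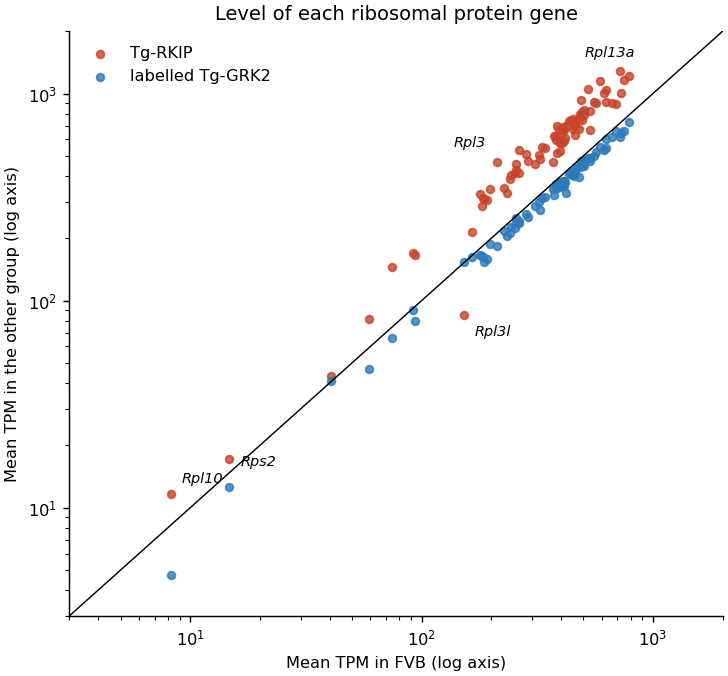
Mean TPM of each member in FVB (x axis, log scale) against its mean TPM in Tg-RKIP (red) and in the Tg-GRK2-labelled hearts (blue; y axis, log scale), n = 3 libraries per mean; the line marks equal levels. Rpl10l and Rpl39l, below 1 TPM, are left out, and Rpl29, at 1.77 TPM in FVB, lies outside the range of the axes. Nearly all red points lie above the line, Rpl3l lies below it at 152 TPM in FVB and 85.6 TPM in Tg-RKIP, and most blue points lie a little below the line, with Rpl10 farthest from it (8.26 TPM in FVB and 4.72 TPM in the Tg-GRK2-labelled hearts).

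At the other end, Rpl3l fell more than any other member. It was at 86.4, 83.5 and 86.9 TPM in Tg-RKIP, 152, 152 and 156 TPM in the Tg-GRK2-labelled hearts, and 149, 156 and 150 TPM in FVB. The Tg-RKIP libraries were thus the low ones, and the other groups overlapped. The log2 fold change against FVB was -1.24 ± 0.03 SE (adjusted p = 2.97e-20), and Rpl3l was the only member below 0 under each of the 5 scalings that were compared. The next lowest values after TMM scaling were those of Rps2 (-0.23) and, close to 0, of Rpl15, Rpl5 and Rpl7a. Rpl15 (368, 362 and 378 TPM in FVB and 459, 459 and 480 TPM in Tg-RKIP) and Rpl5 (527, 547 and 531 TPM and 673, 651 and 682 TPM) passed the test with a lower value of -0.064 each (adjusted p = 0.0140 and 0.0315). Their direction reversed on the library size and TPM scales, where both were higher in Tg-RKIP, so it holds only relative to the other genes.

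These small values also lay near the threshold of the test. The call for Rpl15 was lost without Tg-RKIP replicate 2 (adjusted p = 0.0514) or FVB replicate 3 (0.0702), with values of -0.058 and -0.051. That for Rpl5 was lost without Tg-RKIP replicate 1 (0.0777) or 2 (0.121), Tg-GRK2 replicate 2 (0.0516) or FVB replicate 2 (0.123), with values between -0.061 and -0.050. Both calls were also lost among genes with a mean of at least 50 reads (adjusted p = 0.208 and 0.272). Rps2, at 16.4, 18.6 and 16.4 TPM against 11.4, 18.2 and 14.6 TPM, did not pass (-0.23 ± 0.11, adjusted p = 0.0640), although it passed without FVB replicate 1 (-0.39, adjusted p = 0.000898) or Tg-RKIP replicate 2 (-0.30, adjusted p = 0.0371) and without a filter on low counts (-0.24, adjusted p = 0.00818). Rpl7a did not pass either (-0.037 ± 0.024, adjusted p = 0.171), except on its most abundant transcript (-0.082, adjusted p = 0.0161), and it was higher on the library size (0.34) and TPM (0.38) scales.

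Rpl3 and Rpl3l encode exchangeable subunits, so their balance within a library needs no scaling between libraries. Rpl3 lies on chromosome 15 (79961992 to 79976069) and Rpl3l on chromosome 17 (24946794 to 24955117) in the deposited coordinates, GRCm39 per the submitters' processing notes. Of the summed reads of both genes, Rpl3l held 16.5%, 15.8% and 16.3% in Tg-RKIP, 45.6%, 45.5% and 46.7% in the Tg-GRK2-labelled hearts, and 41.8%, 42.9% and 42.0% in FVB. The 3 groups did not overlap. The ratio of Rpl3l to Rpl3 was 3.79-fold lower in Tg-RKIP than in FVB (log2 difference -1.92) and 1.16-fold higher in the Tg-GRK2-labelled hearts (0.22). The exact two-sided permutation test gave p = 0.1 for each, the smallest value that 3 libraries against 3 can give, and an adjusted p of 0.15 over 12 comparisons of 4 pairs. All 50-base windows of the most abundant Rpl3l transcript were unique to the gene in the GENCODE M21 transcripts. For Rpl3 14.4% were, and the rest also occurred in transcripts of 26 other genes, whose type was not examined.

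The other paralogs did not follow Rpl3l. Rpl22l1, the paralog of the RNA-binding subunit gene Rpl22, rose in Tg-RKIP from 69.7, 80.6 and 72.6 TPM to 147, 142 and 146 TPM (0.53 ± 0.05, adjusted p = 1.43e-09), and Rpl22 rose by less (0.23 ± 0.03, adjusted p = 2.00e-07). The ratio of Rpl22l1 to Rpl22 was 1.24-fold higher than in FVB without overlap (exact permutation p = 0.1, adjusted p = 0.15). Rps27l rose from 84.1, 100 and 96.6 TPM to 160, 174 and 162 TPM (0.40 ± 0.05, adjusted p = 4.63e-07), and its parent Rps27 rose likewise (0.31 ± 0.05, adjusted p = 9.27e-06). Their ratio was 1.07-fold higher (exact permutation p = 0.1, adjusted p = 0.15). Rpl7l1, a protein of ribosome assembly rather than of the finished ribosome, was at 42.6, 42.8 and 44.4 TPM against 41.4, 39.4 and 41.1 TPM and did not pass (0.005 ± 0.037, adjusted p = 0.900), while Rpl7 rose by 0.060 ± 0.019 (adjusted p = 0.00619). On the TPM scale Rpl7l1 passed (0.091, adjusted p = 0.0449), and on the most abundant transcript the calls for Rpl7 (0.076, adjusted p = 0.475) and Rpl22 (0.053, adjusted p = 0.685) were lost. The ratio of this pair overlapped between the groups (exact permutation p = 0.3, adjusted p = 0.327). Rps4x, an X-linked subunit gene (0.30 ± 0.02, adjusted p = 8.50e-12), and Rpl39 of the exit tunnel (0.27 ± 0.04, adjusted p = 1.15e-05) rose. Of their own paralogs, Rpl39l had too few reads to test and Rps4l is not analysed here.

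**Figure D4:**
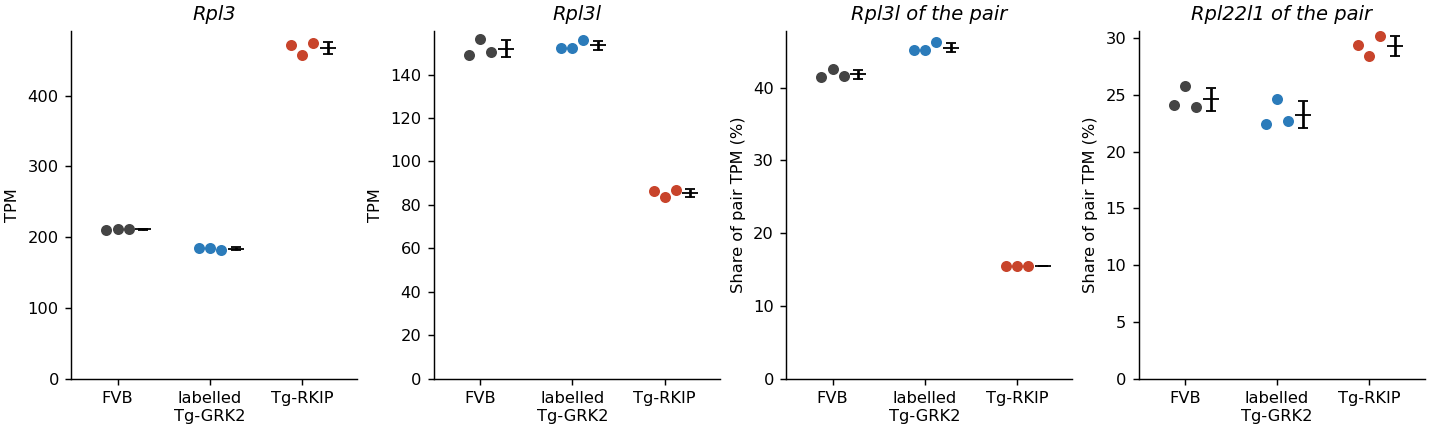
TPM of Rpl3 and of its muscle paralog Rpl3l in each library, and the share of Rpl3l in the summed TPM of Rpl3 and Rpl3l and of Rpl22l1 in that of Rpl22 and Rpl22l1 (percent). Points are libraries, black marks the mean ± SD of 3. In Tg-RKIP Rpl3 is highest and Rpl3l lowest, and the share of Rpl3l is 15.4% to 15.5% against 41.4% to 42.5% in FVB.

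By position in the ribosome, the P stalk genes rose in Tg-RKIP without exception but by unequal amounts. Rplp0 rose by 0.073 ± 0.018 (adjusted p = 9.85e-04), Rplp2 by 0.30 ± 0.03 (adjusted p = 1.24e-09) and Rplp1 by 0.55, and Rplp0 moved from rank 5 to rank 14 by TPM. Rpl5 and Rpl11, which carry the 5S ribosomal RNA and, outside the ribosome, bind MDM2, stayed close to 0. Rpl11 was at 607, 597 and 622 TPM against 402, 437 and 414 TPM and rose by 0.063 ± 0.024 on the TMM scale (adjusted p = 0.0234). This call was lost without FVB replicate 1 (0.027, adjusted p = 0.304), Tg-RKIP replicate 2 (adjusted p = 0.0529) or Tg-RKIP replicate 3 (0.0705). On the most abundant transcript alone its value was -0.019. Of 8 genes of the exit tunnel 7 rose (median 0.15). Of 12 genes mutated in Diamond-Blackfan anaemia, an inherited failure of red cell production, 9 rose and 2 fell (median 0.21). Among the 81 tested members 68 rose and 3 fell (median 0.25), against 36.8% and 37.1% of all tested genes. Whether these lists differ from the other members was not tested. Of the most abundant members, Rps24 rose by 0.21 ± 0.02 (adjusted p = 7.04e-08) and Rps14 by 0.083 ± 0.020 (adjusted p = 9.01e-04), the former not on its most abundant transcript alone (0.066, adjusted p = 0.108).

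In the Tg-GRK2-labelled hearts the members were lower than in FVB, each by little. In these libraries 77 of the 81 tested members fell and 0 rose with edgeR (0 rose at an unadjusted p below 0.05, with DESeq2 or with limma), against a background of 12.2% of all tested genes that fell and 12.2% that rose. The median was -0.19, with the middle of the distribution between -0.24 and -0.14, and every tested member had a value below 0 with edgeR. With limma on log2(TPM + 0.1), 79 members lay below 0 and 2 above. With edgeR's test for a fold of at least 1.2, 0 members were lower (5 at an unadjusted p below 0.05), against 1.21% of all tested genes. DESeq2 called 69 members and 7.78% of all genes lower (9.46% higher), and limma on log2(TPM + 0.1) called 53 members and 6.05% of all genes lower (13.1% higher). On the most abundant transcript of each gene 41 members and 5.46% of all genes were lower. In TMM-scaled counts the groups did not overlap for 70 members, all lower, against 18.6% of all tested genes that were lower and 18.5% that were higher.

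The lowest values here belonged to Rpl10, Rps27 and Rpl35. Rps27, a small subunit protein, was at 343, 307 and 344 TPM against 378, 435 and 448 TPM in FVB (-0.39 ± 0.05, adjusted p = 8.57e-06), without overlap. Only 1.4% of its 50-base windows were unique to the gene. Rpl10, which joins the large subunit late in its assembly, had 39 to 93 reads per library against 73 to 154 in FVB, with overlap. Its fall (-0.82 ± 0.24, adjusted p = 0.0161) was lost without FVB replicate 3 (-0.41, adjusted p = 0.189) or Tg-GRK2 replicate 1 (-0.58, adjusted p = 0.0873), with DESeq2 (-0.83, adjusted p = 0.125) and with limma on TPM (-0.71, adjusted p = 0.117). Rpl35 of the exit tunnel, at 49.2, 38.1 and 52.7 TPM against 48.6, 61.4 and 67.2 TPM, also overlapped (-0.39 ± 0.12, adjusted p = 0.0173), and its call was lost without Tg-GRK2 replicate 2 (adjusted p = 0.117), FVB replicate 2 (0.0815) or FVB replicate 3 (0.112), with DESeq2 (0.159) and with limma on TPM (0.151).

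The smallest differences were those of Rpl3l, Rpl7a and Rpl21. Rpl3l did not pass (-0.035 ± 0.026, adjusted p = 0.368), whereas Rpl3 fell by 0.25 on the log2 scale (SE 0.021, adjusted p = 5.84e-09). Rpl7a fell by 0.080 (SE 0.025, adjusted p = 0.0212), but did not pass without Tg-GRK2 replicate 3 (adjusted p = 0.0659) or FVB replicate 2 (0.0914), with DESeq2 (0.148) or with limma on TPM (0.386). Rpl21 fell by 0.085 (SE 0.030, adjusted p = 0.0434), and this call was lost when any library but Tg-RKIP replicate 1 or 3 was left out (adjusted p between 0.0525 and 0.156). It was also lost on the library size alone (adjusted p = 0.0928), in a fit of these 2 groups only (0.0563), with DESeq2 (0.249) and with limma on TPM (0.363). The P stalk genes fell by 0.12 (Rplp0), 0.15 (Rplp1, not called by DESeq2, adjusted p = 0.0581) and 0.14 (Rplp2), and Rpl5 and Rpl11 by 0.23 and 0.22. Of the marker lists, the airway epithelium stood out with 192 to 201 TPM against 0.11 to 0.64 TPM in FVB. The erythrocyte markers summed to 1665 to 1690 TPM against 739 to 753 TPM, the fibroblast markers to 1178 to 1195 against 1032 to 1060 TPM and the adipocyte markers to 58.0 to 59.6 against 41.5 to 43.3 TPM. Their part in the lower ribosomal protein values was not tested.

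Compared directly, Tg-RKIP hearts exceeded the Tg-GRK2-labelled hearts in 77 of the 81 tested members, with a background of 37.9% of all tested genes. The median log2 fold change was 0.45 (all tested genes 0.020), and 66 members were higher in the test for a fold of at least 1.2, against 26.1% of all tested genes. In TMM-scaled counts 79 members were higher and 1 was lower without overlap, against 39.1% and 37.4% of all tested genes. The only member that fell was Rpl3l (-1.21 ± 0.03 SE, adjusted p = 4.83e-20; 36.6% of all tested genes fell), and the largest rise was that of Rpl3 (0.93 ± 0.02, adjusted p = 1.56e-20).

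Ribosomal proteins that the naming rule does not reach moved in part with the members. Fau, whose product is cleaved to the small subunit protein eS30, was at 579, 587 and 599 TPM in Tg-RKIP against 298, 316 and 301 TPM in FVB (0.53 ± 0.03, adjusted p = 6.95e-14). Rpl36al rose by 0.30 ± 0.03 (adjusted p = 8.35e-08) and Rack1, a scaffold on the small subunit, by 0.090 ± 0.019 (adjusted p = 2.65e-04), but not on its most abundant transcript (-0.045, adjusted p = 0.227). Rps27rt, a retrogene of Rps27, did not pass (-0.041 ± 0.060, adjusted p = 0.551), but was higher on the library size (0.33, adjusted p = 4.08e-05) and TPM (0.37, adjusted p = 0.000598) scales. In the Tg-GRK2-labelled hearts 2 of these 5 genes fell and 1, Rps27rt, rose (94.4, 118 and 115 TPM against 92.6, 88.4 and 89.1 TPM, 0.23 ± 0.06, adjusted p = 0.00785), a call that was lost without Tg-GRK2 replicate 2 (0.18, adjusted p = 0.0558) or 3 (0.18, adjusted p = 0.0610). Of all tested genes 12.2% fell and 12.2% rose in this comparison.

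Elongation factors resembled the members only in part. In Tg-RKIP 5 of 8 rose and 2 fell (median 0.16), and in the Tg-GRK2-labelled hearts 1 rose and 6 fell (median -0.096). The shares of all tested genes were 36.8% and 37.1% in Tg-RKIP, and 12.2% each in the Tg-GRK2-labelled hearts. Eef1a1, which brings aminoacyl-tRNA to the ribosome, was at 1832, 1811 and 1829 TPM in Tg-RKIP, 835, 847 and 835 TPM in the Tg-GRK2-labelled hearts, and 899, 893 and 896 TPM in FVB. It rose by 0.61 ± 0.01 in Tg-RKIP (adjusted p = 1.30e-19). Eef1a2, its counterpart in adult muscle and neurons, was at 1010, 972 and 999 TPM in Tg-RKIP and at 781, 804 and 780 TPM in FVB. After TMM scaling Eef1a2 was lower (-0.084 ± 0.018, adjusted p = 2.15e-04), a direction that reversed on the library size and TPM scales. Eef1b2, the exchange factor of eEF1A, rose (0.38 ± 0.03, adjusted p = 8.53e-12), and Eef2k, the kinase that inactivates eEF2, fell (-0.38 ± 0.03, adjusted p = 5.35e-10) but was not called on the library size alone (adjusted p = 0.968) and was higher on the TPM scale (0.36).

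Initiation factors showed no common direction in Tg-RKIP, with 11 of 35 higher and 14 lower (median -0.033). These shares, 31.4% and 40.0%, lay near the 36.8% and 37.1% of all tested genes. Eif6, which keeps free large subunits from joining small ones, rose most (0.56 ± 0.04, adjusted p = 6.56e-12), followed by the eIF3 subunit gene Eif3b (0.39 ± 0.02, adjusted p = 8.51e-13). Eif4g2, a scaffold for cap-independent initiation (-0.77 ± 0.02, adjusted p = 2.78e-20), and Eif3j1 (-0.52 ± 0.04, adjusted p = 9.50e-11) fell after TMM scaling. On the TPM scale neither was called, with values of 0.012 for Eif4g2 (adjusted p = 0.753) and -0.11 for Eif3j1 (adjusted p = 0.0626). In the Tg-GRK2-labelled hearts 2 of the 35 rose and 12 fell (median -0.066), against 12.2% and 12.2% of all tested genes.

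Of 6 other mRNAs known to carry a 5′ TOP tract, 5 rose and 1 fell in Tg-RKIP (median 0.27), and 0 rose and 4 fell in the Tg-GRK2-labelled hearts (median -0.13). The list counts of this paragraph stand beside 36.8% of all tested genes that rose and 37.1% that fell in Tg-RKIP. In the Tg-GRK2-labelled hearts these shares were 12.2% each. Hnrnpa1 (0.32 ± 0.02, adjusted p = 2.35e-11), Btf3 of the nascent chain complex (0.31 ± 0.03, adjusted p = 7.68e-10) and Tpt1 (0.083 ± 0.020, adjusted p = 7.17e-04) were among those that rose. Naca, the partner of Btf3, which also has a long muscle isoform, fell on summed reads (-0.28 ± 0.02, adjusted p = 3.73e-12) but rose on its most abundant transcript (0.41, adjusted p = 1.2e-05). The 7 snoRNA host genes, non-coding RNAs whose introns hold small nucleolar RNAs, had the highest median of the ribosome-related lists in Tg-RKIP (0.53, with 5 higher and 0 lower) and the lowest in the Tg-GRK2-labelled hearts (-0.33, with 0 higher and 4 lower). Gas5 was at 166, 176 and 165 TPM in Tg-RKIP against 61.8, 65.0 and 66.4 TPM in FVB (0.95 ± 0.05, adjusted p = 4.68e-14). Snhg8 (0.55 ± 0.11, adjusted p = 1.69e-04) and Snhg12 (0.53 ± 0.09, adjusted p = 2.77e-05) rose as well, and the rise of Snhg1 (0.29 ± 0.10, adjusted p = 0.0107) was lost without FVB replicate 3 (0.23, adjusted p = 0.0627) and on its most abundant transcript (0.17, adjusted p = 0.670).

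The machinery that builds ribosomes was divided. Of 47 ribosome biogenesis genes 19 rose and 15 fell in Tg-RKIP (median 0.075), near the background in both directions, and 1 rose and 11 fell in the Tg-GRK2-labelled hearts (median -0.081). The background was 36.8% higher and 37.1% lower in Tg-RKIP, and 12.2% each in the Tg-GRK2-labelled hearts. Rrp12, a factor of subunit export (0.86 ± 0.05, adjusted p = 3.86e-13), and Fbl, the ribosomal RNA methyltransferase fibrillarin (0.55 ± 0.11, adjusted p = 1.54e-04), rose. Mdn1, an ATPase that remodels pre-60S particles (-0.98 ± 0.07, adjusted p = 1.19e-11), and the nucleolar GTPase gene Gnl2 (-0.44 ± 0.04, adjusted p = 9.18e-09) fell on summed reads. For Mdn1 the direction reversed on the TPM scale (0.91) and on the most abundant transcript (1.51). Gnl2 was not called on the library size alone (-0.061, adjusted p = 0.213) or on the TPM scale (0.076, adjusted p = 0.195).

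Of 14 tested genes of RNA polymerase I and its factors, which transcribe ribosomal RNA, 5 rose and 4 fell in Tg-RKIP (median 0.027), and 1 rose and 2 fell in the Tg-GRK2-labelled hearts (median -0.064). These counts lay near the shares of all tested genes, 36.8% and 37.1% in Tg-RKIP and 12.2% each in the Tg-GRK2-labelled hearts. The subunit genes Polr1e (0.59 ± 0.05, adjusted p = 8.52e-10) and Polr1h (0.46 ± 0.07, adjusted p = 1.79e-06) were highest. Polr1a, the largest subunit (-0.42 ± 0.04, adjusted p = 6.37e-10), and the initiation factor gene Rrn3 (-0.22 ± 0.03, adjusted p = 4.80e-06) were lowest. Rrn3 was higher on the library size (0.15, adjusted p = 0.000396) and TPM (0.20, adjusted p = 0.00108) scales. Polr1a was not called on either (-0.048 and 0.011, adjusted p = 0.224 and 0.892) or on its most abundant transcript (0.060, adjusted p = 0.357), and Polr1h was not called on its most abundant transcript (0.26, adjusted p = 0.821).

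Of 20 genes of mTORC1 and MYC control, 4 rose and 11 fell in Tg-RKIP (median -0.15), and 7 rose and 3 fell in the Tg-GRK2-labelled hearts (median 0.006). Of all tested genes, 36.8% rose and 37.1% fell in the former, and 12.2% rose and 12.2% fell in the latter. Myc, a transcription factor that drives ribosome production, was low but higher in Tg-RKIP (5.14 ± 0.35 TPM, SD, n = 3, against 1.65 ± 0.29, log2 fold change 1.14 ± 0.13 SE, adjusted p = 6.82e-08), although not on its most abundant transcript alone (1.58, adjusted p = 0.290). Sesn2, a leucine sensor that restrains mTORC1, rose (0.96 ± 0.11, adjusted p = 5.28e-08). Tsc1, another inhibitor of mTORC1 (-0.89 ± 0.04, adjusted p = 3.03e-15), and the kinase gene Mtor (-0.73 ± 0.03, adjusted p = 5.50e-15) fell. Of 3 ribosome dormancy factors, Ccdc124 rose (0.37 ± 0.04, adjusted p = 1.53e-07) and Serbp1 was lower after TMM scaling (-0.055 ± 0.019, adjusted p = 0.0137) and higher on the library size (0.32) and TPM (0.42) scales. Habp4 did not pass (0.063 ± 0.033, adjusted p = 0.0889), but passed without FVB replicate 2 (0.091, adjusted p = 0.0254), among genes with a mean of at least 50 reads (0.096, adjusted p = 0.0103), on its most abundant transcript (0.099, adjusted p = 0.0281), on the library size alone (0.44) and on the TPM scale (0.40).

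**Figure D5:**
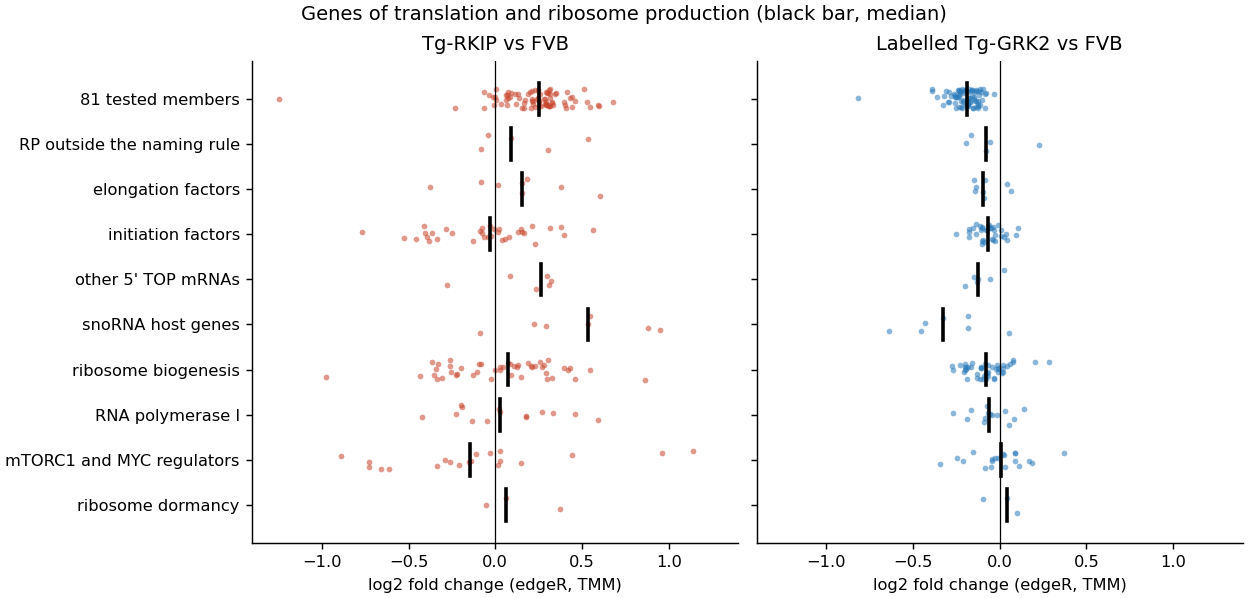
Log2 fold change (edgeR with TMM scaling, x axis) of the genes of each list in Tg-RKIP (left) and in the Tg-GRK2-labelled hearts (right), both against the same FVB libraries. Points are genes, black bars medians; the 81 tested ribosomal protein genes (medians 0.25 and -0.19) and the snoRNA host genes (0.53 and -0.33) lie on opposite sides of 0 in the panels, while the initiation factors, with medians of -0.033 and -0.066, spread to both sides of 0 in Tg-RKIP.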

How the data were processed

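Hearts of 9 mice were sequenced as single reads of 50 bases after fragmentation and random hexamer priming of mRNA. The authors deposited read counts per transcript, not normalised, and TPM values per transcript in each library. The submitters' processing notes name GRCm39, and the aligner, the counter and the treatment of reads shared between genes are not given in the sources used here. Counts and deposited TPM were summed by gene name. Counts were tested with edgeR 4.0.16 (R 4.3.3) by TMM scaling, filterByExpr, glmQLFit and glmQLFTest on all 9 libraries with a mean per group, and the Benjamini-Hochberg adjustment ran over 15504 genes, with a threshold of 0.05. Genes within a ribosome-related list were counted, not tested as a set. Paralog ratios, log2 of reads plus 0.5, were compared by exact permutation tests in scipy 1.17.1. DESeq2 1.42.0 and limma 3.58.1 on log2(TPM + 0.1) or log2(TPM + 1) were alternatives. The scripts were tested on simulated data. Uniqueness was the share of 50-base windows of the most abundant transcript absent from GENCODE M21 transcripts of other genes. Of 1642 such other genes, 522 are names in the deposited table, and 481 of these share windows with the single member Rpl7l1.

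The member rule uses gene names only, but the rule and the lists were set with earlier results of these data known. Named were the paralogs with their parents, the 5 most abundant members in FVB, the 5 highest and 5 lowest log2 fold changes in Tg-RKIP and 3 and 3 in the libraries labelled Tg-GRK2, P stalk and 5S genes, the 2 highest and 2 lowest genes of each list with a mean of at least 100 reads, Eef1a1, Eef1a2 and the transgenes. Rps4l, Rpl37rt and Polr1g are not analysed here, and a few genes that this rule names are not reported here.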

Additional observations from a re-analysis of the deposited data

How the results depend on the processing

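Most values kept their direction and their side of the threshold. The differences were small, 1.19-fold for the median member in Tg-RKIP, and members near 0 changed sign with the scaling. A median of 34.9% of the windows of a member were unique, and reads shared with other genes may limit single members. Their effect was not tested. The labels number 3 replicates per group. The p-values of edgeR rest on the spread between libraries within groups, estimated over all 9 libraries together.

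Against FVB, the number of members higher in Tg-RKIP was 26 with a test for a fold of at least 1.2. In that test 24.8% of all tested genes were higher and 24.6% were lower. The number lower was 1 on the library size alone, with a mean of at least 50 reads, with limma on log2(TPM + 0.1) or log2(TPM + 1) and with the fold test. Apart from the fold test, the shares of all tested genes called lower in these fits are not given here. The median was 0.63 on the library size alone and 0.67 with limma at either pseudocount, where the median of all tested genes was also raised. For the Tg-GRK2-labelled hearts 41 members were lower on the most abundant transcript and 0 with the fold test, and the median was -0.13 with limma on log2(TPM + 1). Of all tested genes, 5.46% were lower on the most abundant transcript and 1.21% with the fold test. Between Tg-RKIP and the Tg-GRK2-labelled hearts the median was 0.81 on the library size alone and with limma on either pseudocount. The median of all tested genes was raised there too, to 0.38 on the library size alone and 0.40 with limma on log2(TPM + 0.1). An alternative chosen after seeing the data kept only members with at least 50% unique windows. There 23 of 26 members were higher and 1 was lower in Tg-RKIP against FVB, 24 were lower in the Tg-GRK2-labelled hearts, and 25 were higher in Tg-RKIP than in those. The shares of all tested genes, without regard to unique windows, were 36.8% and 37.1%, 12.2%, and 37.9%, in the same order. Leaving out single libraries gave 64 to 68 higher and 2 to 4 lower members for Tg-RKIP against FVB, 68 to 77 lower members for the Tg-GRK2-labelled hearts, and 76 to 77 higher members for Tg-RKIP against those. The shares of all tested genes called in the fits without a library are not given here.

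Signs in Tg-RKIP against FVB reversed on the library size alone for Rpl15 (0.31), Rpl5 (0.31), Rpl7a (0.34), Rps27rt (0.33), Eef1a2 (0.29), Naca (0.10), Rrn3 (0.15) and Serbp1 (0.32). With limma on log2(TPM + 0.1) and log2(TPM + 1) they reversed for Rpl15 (0.33 and 0.33), Rpl5 (0.32 and 0.32), Rpl7a (0.38 and 0.38), Rps27rt (0.37 and 0.37), Eef2k (0.36 and 0.35), Eef1a2 (0.33 and 0.33), Eif4g2 (0.012 and 0.012), Naca (0.67 and 0.67), Mdn1 (0.91 and 0.72), Gnl2 (0.076 and 0.073), Polr1a (0.011 and 0.010), Rrn3 (0.20 and 0.19) and Serbp1 (0.42 and 0.42). On the most abundant transcript they reversed for Rpl11 (-0.019), Rack1 (-0.045), Naca (0.41), Mdn1 (1.51), Polr1a (0.060) and the log2 ratio of Rpl7l1 to Rpl7 (0.011). The ratio of Rps27l to Rps27 in Tg-RKIP against the Tg-GRK2-labelled hearts, -0.0091, lay between -0.066 and 0.052 when single libraries were left out. The cause of these reversals was not tested.

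The replicate numbers did not pair the hearts: same-numbered libraries deviated together with r between -0.049 and 0.052 over 9 pairs, other libraries with r between -0.055 and 0.028 over 18, and not every library correlated best with its own number. With the replicate number as a block, 68 members were higher and 4 lower in Tg-RKIP, 77 were lower in the Tg-GRK2-labelled hearts, and 77 were higher and 1 lower in Tg-RKIP against those. The shares of all tested genes called with the block are not given here. Without the block they were 36.8% higher and 37.1% lower, 12.2% lower, and 37.9% higher and 36.6% lower, in the same order. Under the block Rps2 was called lower in Tg-RKIP (-0.23, adjusted p = 0.0246) and in the Tg-GRK2-labelled hearts (-0.28, adjusted p = 0.0326), and Rpl21 was not called in the latter (-0.086, adjusted p = 0.0511). The difference in the ratio of Rpl3l to Rpl3 was -1.92 with the block, with an exact sign-flip p of 0.25, the smallest that 3 pairs can give.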

Other observations

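The composition of the member mRNAs by transcript class differed little between the groups. Protein-coding transcripts held 77.1% to 77.7% of the member reads in Tg-RKIP, 77.8% to 78.2% in the libraries labelled Tg-GRK2 and 77.7% to 78.7% in FVB. Retained introns held 8.22% to 9.29% over all 9 libraries. Transcripts subject to nonsense-mediated decay held 7.36% to 7.46% in Tg-RKIP, above all other libraries (6.88% to 7.18%). A short protein-coding Rpl3 transcript of 460 bases had 312, 54 and 223 reads in Tg-RKIP, 0, 0 and 10 reads in the libraries labelled Tg-GRK2 and 0 reads in each FVB library, so that all 3 Tg-RKIP libraries lay above the others. The full-length Rpl3 transcript of 1351 bases had 9689, 13093 and 9864 reads in Tg-RKIP and 5100, 5862 and 5089 reads in FVB. This transcript was singled out after its values were seen.

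Across the 81 tested members, the log2 fold change in Tg-RKIP against FVB had a Pearson r of -0.28 and a Spearman rho of -0.24 with the length of the most abundant transcript (-0.19 and -0.21 over the 80 members without Rpl3l), and of -0.12 and 0.12 with the share of unique windows. The genes share libraries and depth and are not independent replicates, and these values are descriptions.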
